A study of Mus musculus with 8 samples.

Results

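Epithelial cells hold to one another through several junctions, and 66 of the 55450 genes in the table encode their parts. They were taken by symbol: 23 claudins, 20 connexins, 10 cadherins (the desmogleins, the desmocollins and *Cdh1*, the E-cadherin of adherens junctions), 6 plaque proteins of desmosomes, 4 other membrane proteins of tight junctions (*Ocln*, *Marveld2*, *Marveld3* and *F11r*) and 3 scaffold proteins of tight junctions. RNA-sequencing was analysed in thymic epithelial cells (TECs) of embryonic day 17 (E17) mice that carried a *Ccl21a*-tdTomato knock-in and a *Tnfrsf11a* (RANK)-Venus transgene. All 3 sorted populations came from embryos with both reporters: CCL21+RANK- TECs (3 libraries), CCL21-RANK+ TECs (3 libraries) and CCL21-RANK- TECs (2 libraries). They are called CCL21+, RANK+ and double-negative TECs here, and by their full names in the figures. The study describes its replicates in general as biological, and the number of embryos behind a library is not given in the sources used here, so p-values measure the spread between these libraries. Totals were 46003128 to 59677315 counts in CCL21+RANK-, 42751839 to 57286762 in CCL21-RANK+ and 67451440 to 71625282 in CCL21-RANK- libraries.

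Tight junctions close the space between neighbouring epithelial cells. Claudins form their strands and decide which ions pass, occludin and the Marvel proteins are further membrane parts, and the zonula occludens proteins, encoded by *Tjp* genes, tie them to actin. Desmosomes bind cells mechanically: desmogleins and desmocollins meet between the cells, and plakoglobin, plakophilins and desmoplakin link them to keratin filaments. Gap junctions are channels of connexins through which small molecules pass between cells. In the thymus, claudins of the tight junction have been used as surface markers of medullary TECs.

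The libraries carried the marker genes of their labels. *Ccl21a* was at 404 ± 137 RPKM (counts per 1000 bases of exon and 1000000 counts of the library; mean ± SD, n = 3) in CCL21+, 109 ± 38.4 RPKM (n = 3) in RANK+ and 7.88 ± 1.41 RPKM (n = 2) in double-negative TECs. *Tnfrsf11a*, which encodes RANK, was at 9.50 ± 0.750, 104 ± 9.37 and 2.44 ± 0.258 RPKM in the same order. The thymic epithelial factor *Foxn1* was at 94.6 ± 9.99, 53.4 ± 2.31 and 83.8 ± 2.31 RPKM, and *Epcam*, the sorting antigen, at 59.6 ± 16.7, 133 ± 19.8 and 72.7 ± 15.6 RPKM. Thus *Ccl21a* RNA was also present in the RANK+ libraries. *Aire*, the transcriptional regulator of mature medullary TECs, was at 0.802, 0.807 and 0.631 RPKM in CCL21+, 131, 94.1 and 114 RPKM in RANK+ and 0.810 and 0.120 RPKM in double-negative TECs, so that the RANK+ libraries lay far above all others.

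Some libraries also held markers of other cells, although the study's methods describe TECs as EpCAM+CD45- cells, taken from a suspension enriched for CD45- cells, a gate that would remove haematopoietic, mesenchymal and endothelial cells. The summed level of 4 parathyroid genes (*Pth*, *Gcm2*, *Casr* and *Chga*) was 7122, 1749.8 and 1955 RPKM in the CCL21+ libraries, 24.9, 11.1 and 12.0 RPKM in the RANK+ libraries and 23.8 and 21.6 RPKM in the double-negative libraries. All 4 were higher in CCL21+ TECs than in both other populations, *Chga* was the most abundant in each CCL21+ library, and the first of these libraries stood apart. The RANK+ libraries held more mesenchymal RNA (7 genes, 52.7, 27.2 and 33.0 RPKM, against 2.80, 2.91 and 1.85 RPKM in CCL21+ and 4.03 and 1.91 RPKM in double-negative), with 5 of 7 genes higher than in either other population and *Col1a1* or *Dcn* the most abundant. Haematopoietic genes summed to 49.3, 19.9 and 34.3 RPKM in RANK+, mostly *Cd52* (*Ptprc*, which encodes CD45, was at 0.576, 0.177 and 0.421 RPKM), against 8.38, 3.35 and 5.17 RPKM in CCL21+ and 2.88 and 2.52 RPKM in double-negative TECs. Genes of Schwann cells and neural crest glia summed to 23.4, 11.8 and 16.2 RPKM, mostly *Erbb3*, against 3.52, 1.75 and 2.199 RPKM and 1.39 and 1.43 RPKM. Genes of cornified keratinocytes summed to 15.0, 3.77 and 4.53 RPKM, led by *Krt10*, against 1.42, 1.56 and 1.38 RPKM and 1.02 and 1.62 RPKM. Endothelial genes stayed low, with 4.25, 2.36 and 1.90 RPKM in RANK+, 0.368, 0.467 and 0.312 RPKM in CCL21+ and 0.201 and 0.133 RPKM in double-negative TECs, and *Emcn* was at 0 in all 3 CCL21+ libraries. *Tek* led this sum in each RANK+ library, at 2.17, 1.06 and 0.923 RPKM. Of 5 endothelial genes tested, only *Tek* was called higher in RANK+ TECs than in either other population. Erythroid genes, led by the globins, summed to 5.46, 115 and 38.3 RPKM in CCL21+, 125, 192 and 209 RPKM in RANK+ and 318 and 38.2 RPKM in double-negative TECs. The part of other cells in the junction gene levels was not tested. The paper describes genome-wide ectopic transcription in *Aire*-expressing medullary TECs, and thymic mimetic cells that resemble cell types outside the thymus. RNA of other cells cannot be told apart here from such expression within TECs. In bulk RNA, fewer cells of a type also cannot be told apart from less RNA per cell.

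Most junction genes that differed were higher in RANK+ TECs, but most of the desmosome plaque was lower there. A mean above 1 RPKM in at least 1 population was reached by 39 of 66 genes, of which 23 passed it in CCL21+, 37 in RANK+ and 22 in double-negative TECs. Of these 39 genes, 9 were highest on average in CCL21+, 23 in RANK+ and 7 in double-negative TECs. The expression filter of edgeR left 57 genes to test, and the other 9 never exceeded 0.529 RPKM in a library. A gene was called when the quasi-likelihood test of edgeR gave an adjusted p (Benjamini-Hochberg) under 0.05, the fold change was over 1.5 and the mean was over 1 RPKM in the higher population. Between CCL21+ and RANK+ TECs, 34 of 57 junction genes (59.6%) were called, against 30.8% of all 21451 genes tested. The calls were 12 higher in CCL21+ TECs and 22 higher in RANK+ TECs, where all genes gave 15.4% each way. The median log2 fold change (CCL21+ over RANK+) was -2.28 for the junction genes and -0.11 for all genes. Without the first CCL21+ library, which had the most parathyroid RNA, the calls were 11 and 21, and without the first RANK+ library they were 12 and 19.

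RANK+ and double-negative TECs differed in a like number of junction genes. There, 35 of 57 (61.4%) were called against 29.5% of all genes, 26 higher in RANK+ (14.4% of all genes) and 9 higher in double-negative TECs (15.1% of all genes). Between CCL21+ and double-negative TECs, 12 of 57 (21.1%) were called against 8.02% of all genes, 10 higher in CCL21+ (4.35% of all genes) and 2 higher in double-negative TECs (3.66% of all genes). The median log2 fold change was 3.19 in the former comparison (RANK+ over double-negative; 0.06 for all genes) and 0.40 in the latter (CCL21+ over double-negative; 0 for all genes). These comparisons share the 2 double-negative libraries. With one of them left out, the 10 genes became 6 (without the first) or 4 (without the second), and without the first CCL21+ library they became 7, while the 2 genes became 1 without the first double-negative library or without the second or the third CCL21+ library, and 3 without the first CCL21+ library. In all, 22 of the 57 genes were called higher in RANK+ TECs than in both other populations (11.8% of all genes), and 9 lower than in both (11.7% of all genes), among them *Cldn12*, *Cldn8*, *Dsc2*, *Dsc3*, *Dsp*, *Jup*, *Pkp3* and *Pkp4*. Only *Cldn1*, *Gja3* and *Pkp1* of the junction genes were called higher in CCL21+ TECs than in both others (1.9% of all genes), and only *Cldn8* and *Dsc3* in double-negative TECs (1.22% of all genes). *Marveld2*, *Marveld3*, *Dsg1a*, *Gja4* and *Pkp2* were higher in CCL21+ than in double-negative TECs (adjusted p = 0.00549, 0.00618, 0.0194, 0.0256 and 0.0177, edgeR). They were not called there, as their means were under 1 RPKM. Without the first CCL21+ library, the adjusted p was 0.0501 for *Dsg1a* and 0.0628 for *Gja4*.

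**Figure D1:**
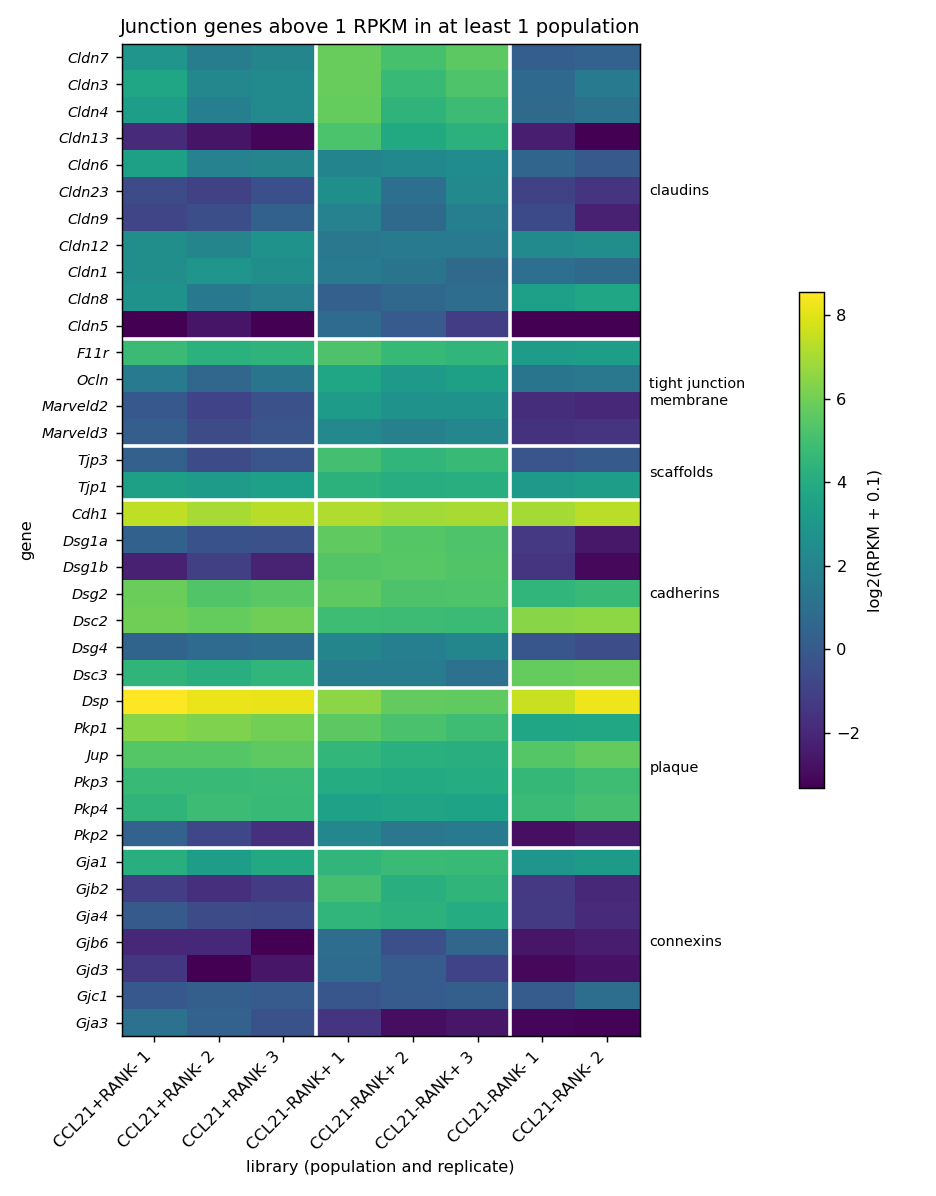
Level of 37 junction genes with a mean above 1 RPKM in at least 1 population, as log2(RPKM + 0.1), with a row per gene, a column per library and white lines between gene classes and populations. The 3 RANK+ libraries are brighter than the others for *Cldn3*, *Cldn4*, *Cldn7*, *Tjp3*, *Dsg1a*, *Dsg1b*, *Gjb2* and *Gja4*, and darker for *Dsc3* and *Dsp*.

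**Figure D2:**
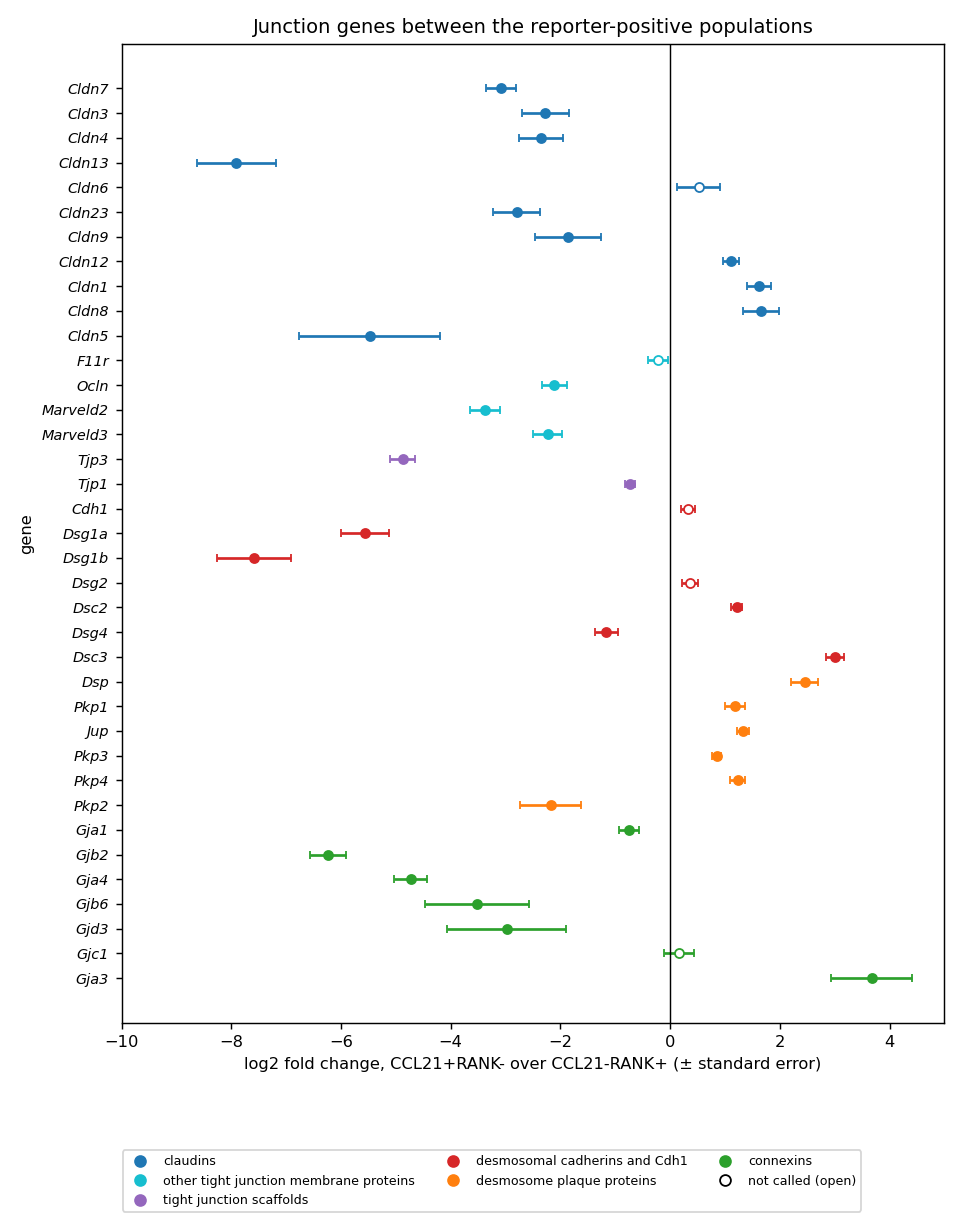
Log2 fold change (CCL21+ over RANK+, ± standard error) of 37 genes above 1 RPKM, coloured by class. Filled points were called and open points were not, and values left of 0 are higher in RANK+ TECs, as for 21 of the 32 genes called here.

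Promoter sequences were read for 39 of the 66 genes (55 windows of RefSeq, build GRCm38.p6, from 250 bases before to 50 after a transcription start). They were searched on both strands for CACCTG, an E-box that repressors of the Snail and Zeb families are known to bind, and for AACCNGTT, the motif of Grainyhead-like factors. The E-box was in 20.2% of 32851 windows of all genes, and in a window of 22.6% of 27025 genes. Among junction genes it was present for 8 of 12 genes called higher in RANK+ than in CCL21+ TECs (*Cldn3*, *Cldn4*, *Cldn7*, *Gjb2*, *Gjb6*, *Marveld2*, *Ocln* and *Tjp3*), for 3 of 6 called higher in CCL21+ TECs (*Dsp*, *Gja3* and *Pkp4*) and for 5 of 21 called in neither direction. The Grainyhead-like motif was in 2.09% of all windows and in those of 2 junction genes, *Cldn5* and *Gjb6*. These counts are descriptions, with no test. A promoter of 1 gene from each of 4 classes is shown, chosen after the matches were seen, from 250 bases before to 30 after the start, with the E-box in capitals. *Cldn4*, *Gjb2* and *Tjp3* were higher in RANK+ TECs, and *Dsp* was lower.
Cldn4, chr5:134946905-134947184, minus strand: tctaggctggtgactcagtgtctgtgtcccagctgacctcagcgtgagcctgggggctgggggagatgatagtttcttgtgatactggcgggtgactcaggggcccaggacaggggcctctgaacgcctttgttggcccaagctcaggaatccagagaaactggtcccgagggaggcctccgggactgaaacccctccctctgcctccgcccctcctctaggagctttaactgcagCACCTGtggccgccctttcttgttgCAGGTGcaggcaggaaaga
Gjb2, chr14:57104673-57104952, minus strand: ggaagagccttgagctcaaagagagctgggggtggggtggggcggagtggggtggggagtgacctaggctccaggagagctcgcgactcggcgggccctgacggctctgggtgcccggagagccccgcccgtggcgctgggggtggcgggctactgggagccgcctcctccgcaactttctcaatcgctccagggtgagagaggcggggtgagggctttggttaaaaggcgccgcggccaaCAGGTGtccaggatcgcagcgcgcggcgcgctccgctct
Tjp3, chr10:81291552-81291831, minus strand: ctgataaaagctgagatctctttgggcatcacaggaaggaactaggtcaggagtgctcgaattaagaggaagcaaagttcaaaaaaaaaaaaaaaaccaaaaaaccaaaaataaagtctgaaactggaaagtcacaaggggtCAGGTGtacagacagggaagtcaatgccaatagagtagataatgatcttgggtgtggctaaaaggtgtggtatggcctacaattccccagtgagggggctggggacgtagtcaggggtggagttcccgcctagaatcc
Dsp, chr13:38151044-38151323, plus strand: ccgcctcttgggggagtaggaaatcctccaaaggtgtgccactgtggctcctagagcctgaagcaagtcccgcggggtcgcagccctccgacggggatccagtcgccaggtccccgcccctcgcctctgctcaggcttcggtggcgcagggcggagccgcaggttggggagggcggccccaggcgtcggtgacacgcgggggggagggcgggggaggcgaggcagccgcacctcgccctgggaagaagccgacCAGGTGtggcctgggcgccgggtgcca
The match of *Dsp* and the second of the 2 matches of *Cldn4* lay after the transcription start, and the other 3 matches lay before it.

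Claudin RNA was most abundant in RANK+ TECs. The summed level of the 23 claudins was 60.1, 29.9 and 36.1 RPKM in the CCL21+ libraries, 227, 111 and 154 RPKM in the RANK+ libraries and 24.6 and 28.6 RPKM in the double-negative libraries, so that the populations did not overlap. *Cldn3*, *Cldn4*, *Cldn7* and *Cldn13* together made up 42.1 ± 7.24% of it (SD, n = 3) in CCL21+, 86.4 ± 1.98% (n = 3) in RANK+ and 19.9 ± 3.09% (n = 2) in double-negative TECs. Of 17 claudins tested, 3 were called higher in CCL21+ and 7 higher in RANK+ TECs when these were compared (58.8% called, against 30.8% of all genes). Against double-negative TECs, 8 were higher and 2 lower in RANK+ (58.8%, against 29.5%), and 4 were higher and 1 lower in CCL21+ TECs (29.4%, against 8.02%).

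*Cldn7*, a claudin of many simple epithelia, was at 7.23, 3.19 and 4.17 RPKM in CCL21+, 55.1, 33.8 and 46.5 RPKM in RANK+ and 1.06 and 1.25 RPKM in double-negative TECs. The populations did not overlap and lay in the order RANK+, CCL21+, double-negative. The log2 fold change was -3.09 ± 0.28 (adjusted p = 1.32e-05) between CCL21+ and RANK+, 2.08 ± 0.32 (adjusted p = 0.00343) between CCL21+ and double-negative, and 5.17 ± 0.37 (adjusted p = 4.36e-06) between RANK+ and double-negative TECs (here and below the first population over the second, ± SE). *Cldn3*, a sealing claudin, was at 13.0, 4.35 and 4.93 RPKM in CCL21+, 55.6, 25.1 and 38.4 RPKM in RANK+ and 1.59 and 3.02 RPKM in double-negative TECs. It followed the same order, but the difference between CCL21+ and double-negative TECs missed the threshold, with 1.71 ± 0.50 (adjusted p = 0.058). That difference passed it in 6 of 17 alternatives, with adjusted p values of 0.00228 with DESeq2, 0.00158 with no expression filter, 0.0412 with at least 10 counts in every library, 0.0431 with only these populations fitted, 0.043 without the third CCL21+ library and 0.0428 without the first RANK+ library. RANK+ exceeded double-negative TECs by 3.99 ± 0.56 (adjusted p = 0.000288) and CCL21+ differed from RANK+ TECs by -2.28 ± 0.43 (adjusted p = 0.00162), or by -2.96 without the first CCL21+ library. *Cldn4*, singled out after its values were seen, was at 9.85, 3.40 and 5.03 RPKM in CCL21+, 53.9, 21.02 and 27.7 RPKM in RANK+ and 1.61 and 2.04 RPKM in double-negative TECs. It was higher in CCL21+ than in double-negative TECs by 1.74 ± 0.47 (adjusted p = 0.0409). This adjusted p was 0.0839 without the first CCL21+ library, where the log2 value was 1.1997, 0.0649 without the third RANK+ library, 0.222 and 0.196 without the first and the second double-negative library, and 0.133 in a test of a fold change over 1.5. In each of the reporter-positive populations, the first library was the highest for *Cldn3*, *Cldn4* and *Cldn7*.

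*Cldn13*, a claudin of rodents, was at 0.173, 0.0611 and 0.0170 RPKM in CCL21+, 36.4, 14.5 and 19.6 RPKM in RANK+ and 0.0973 and 0 RPKM in double-negative TECs. No library of the other populations exceeded 0.173 RPKM, and the log2 fold change was -7.91 ± 0.72 (adjusted p = 1.48e-05) between CCL21+ and RANK+ TECs and 8.74 ± 0.91 (adjusted p = 4.23e-05) between RANK+ and double-negative TECs. Leaving out the first CCL21+ library moved the former to -9.09, and leaving out the first or the second double-negative library moved the latter to 13.34 or 7.67. *Cldn13* (chr5:134914249-134915526, GRCm38), *Cldn4* (chr5:134945119-134946934) and *Cldn3* (chr5:134986214-134987472) are consecutive members on chromosome 5, 29.6 kb and 39.3 kb apart. *Cldn5*, the main claudin of blood vessels, was at 0, 0.0614 and 0 RPKM in CCL21+, 1.70, 0.972 and 0.347 RPKM in RANK+ and 0 and 0 RPKM in double-negative TECs. The RANK+ libraries held 228 counts and the double-negative libraries 0, at least 70.4-fold higher against a floor of 3 counts over the group, and the adjusted p was 0.00546. CCL21+ against RANK+ TECs gave -5.48 ± 1.28 (adjusted p = 0.00648), and -9.32 without the second CCL21+ library, the 1 library of that population with a count. Without the first RANK+ library, the mean of *Cldn5* in RANK+ TECs was under 1 RPKM, the limit for a call, so that both calls ended. Endothelial genes in sum were also highest in the RANK+ libraries, with only *Tek* called, as given above, and their part in the *Cldn5* level was not tested. *Cldn9* and *Cldn23*, singled out after their values were seen, were also higher in RANK+ TECs, at 2.96 ± 1.16 and 4.16 ± 2.03 RPKM, against 0.751 ± 0.382 and 0.543 ± 0.118 RPKM in CCL21+ TECs. For *Cldn9* (-1.86 ± 0.61, adjusted p = 0.0261), the adjusted p lay between 0.0612 and 0.079 without the first or the second CCL21+ or the first or the third RANK+ library.

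Other claudins were lower in RANK+ TECs. *Cldn8*, a claudin of the distal kidney tubule, was at 6.62, 2.71 and 3.45 RPKM in CCL21+, 1.15, 1.46 and 1.78 RPKM in RANK+ and 10.2 and 12.9 RPKM in double-negative TECs. Its order was the reverse of that of *Cldn7*, with 1.66 ± 0.32 (adjusted p = 0.00191) between CCL21+ and RANK+, -1.43 ± 0.34 (adjusted p = 0.0252) between CCL21+ and double-negative, and -3.09 ± 0.35 (adjusted p = 8.06e-05) between RANK+ and double-negative TECs. *Cldn8* made up 9.89 ± 1.01% of claudin RNA in CCL21+, 0.988 ± 0.425% in RANK+ and 43.3 ± 2.56% in double-negative TECs. For the difference of *Cldn8* between CCL21+ and double-negative TECs, the adjusted p was 0.0675 without the second CCL21+ library, 0.0695 without the third, 0.101 without the first double-negative library, 0.167 without the second and 0.11 in a test of a fold change over 1.5. *Cldn12* was at 5.75, 4.07 and 6.50 RPKM in CCL21+, 2.57, 2.75 and 2.82 RPKM in RANK+ and 4.97 and 5.83 RPKM in double-negative TECs. It was lower in RANK+ TECs than in CCL21+ (1.11 ± 0.15, adjusted p = 0.00021) and double-negative TECs (-1.11 ± 0.16, adjusted p = 0.000433), and CCL21+ and double-negative TECs overlapped.

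*Cldn1*, needed for the barrier of the epidermis, was the 1 claudin called higher in CCL21+ TECs than in both other populations, at 5.65, 7.15 and 5.91 RPKM in CCL21+, 2.77, 2.31 and 1.60 RPKM in RANK+ and 1.93 and 1.60 RPKM in double-negative TECs. It was higher there than in RANK+ (1.62 ± 0.22, adjusted p = 0.0002) and double-negative TECs (1.82 ± 0.25, adjusted p = 0.00206), and RANK+ and double-negative TECs overlapped, with 0.21 ± 0.24 (adjusted p = 0.516). *Cldn6*, a claudin of embryonic epithelia, was at 10.7, 3.70 and 4.15 RPKM in CCL21+, 4.04, 4.52 and 5.45 RPKM in RANK+ and 1.39 and 0.941 RPKM in double-negative TECs. Both reporter-positive populations exceeded double-negative TECs, by 2.39 ± 0.49 (adjusted p = 0.013) for CCL21+ and 1.87 ± 0.48 (adjusted p = 0.00948) for RANK+, and overlapped each other (0.52 ± 0.40, adjusted p = 0.299). Without the first CCL21+ library the former was 1.74, without the first double-negative library it gave an adjusted p of 0.0573, and without the second the adjusted p values were 0.138 and 0.0893.

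**Figure D3:**
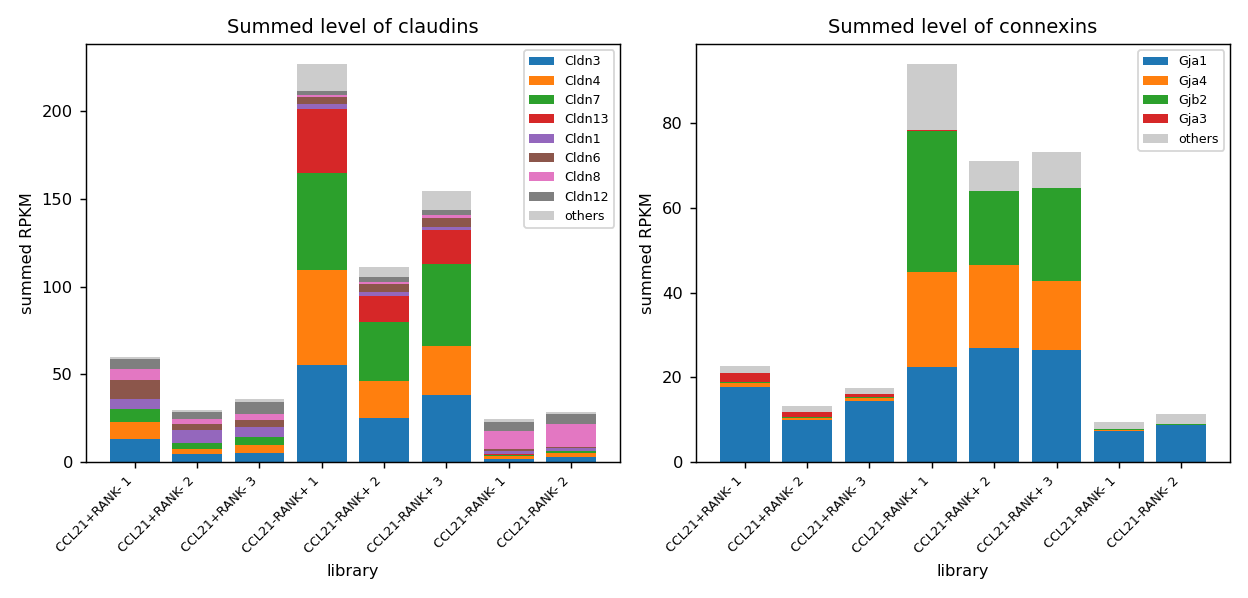
Summed RPKM of claudins (left) and connexins (right) in each of the 8 libraries, stacked by gene, with all other members of the family in grey. The RANK+ libraries reach 111 to 227 RPKM of claudins and 71.1 to 94.1 RPKM of connexins, above the CCL21+ and double-negative libraries, and *Cldn8* is the largest segment in the double-negative libraries.

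The other membrane proteins of tight junctions were not lower in RANK+ TECs. Of 4 genes, 3 were called higher there than in CCL21+ TECs (15.4% of all genes) and 4 higher than in double-negative TECs (14.4% of all genes). *Ocln*, which encodes occludin, was at 3.00, 1.44 and 2.35 RPKM in CCL21+, 12.6, 8.61 and 10.7 RPKM in RANK+ and 2.34 and 2.62 RPKM in double-negative TECs, with -2.11 ± 0.22 (adjusted p = 3.87e-05) between CCL21+ and RANK+ and 1.97 ± 0.26 (adjusted p = 0.000184) between RANK+ and double-negative TECs. *Marveld2*, which encodes the tricellulin found where 3 cells meet, was at 0.862, 0.418 and 0.676 RPKM in CCL21+, 9.19, 6.44 and 6.49 RPKM in RANK+ and 0.197 and 0.149 RPKM in double-negative TECs. It was higher in RANK+ TECs by 10.4-fold against CCL21+ (-3.38 ± 0.27, adjusted p = 7.28e-06) and by 38.8-fold against double-negative TECs (5.28 ± 0.36, adjusted p = 3.65e-06). *Marveld3* was at 1.10, 0.582 and 0.762 RPKM in CCL21+, 4.73, 3.49 and 4.35 RPKM in RANK+ and 0.235 and 0.251 RPKM in double-negative TECs, and its log2 fold changes were -2.24 ± 0.26 (adjusted p = 7.27e-05) and 3.98 ± 0.33 (adjusted p = 1.12e-05) in the same comparisons. *Ocln* and *Marveld2* are 43.2 kb apart on chromosome 13. *F11r*, which encodes the junctional adhesion molecule JAM-A, was at 27.1, 18.8 and 21.05 RPKM in CCL21+, 38.0, 24.4 and 22.8 RPKM in RANK+ and 9.49 and 9.63 RPKM in double-negative TECs. It differed from the other 3 genes: CCL21+ and RANK+ TECs overlapped (-0.22 ± 0.18, adjusted p = 0.339), and both exceeded double-negative TECs (1.22 ± 0.21, adjusted p = 0.00584 and 1.44 ± 0.21, adjusted p = 0.000419). Without the second double-negative library, the difference of *F11r* between CCL21+ and double-negative TECs had an adjusted p of 0.0725.

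Among the scaffold genes, *Tjp3* and *Tjp1* were higher in RANK+ TECs. *Tjp3* (ZO-3), a protein of epithelial tight junctions, was at 1.16, 0.585 and 0.777 RPKM in CCL21+, 32.5, 22.3 and 26.6 RPKM in RANK+ and 0.766 and 0.917 RPKM in double-negative TECs, higher in RANK+ TECs by 29.4-fold against CCL21+ (-4.88 ± 0.23, adjusted p = 5.26e-07) and 29.6-fold against double-negative TECs (4.89 ± 0.28, adjusted p = 1.36e-06). *Tjp1* (ZO-1) was at 10.7, 9.28 and 10.2 RPKM in CCL21+, 19.9, 17.01 and 17.4 RPKM in RANK+ and 8.39 and 9.72 RPKM in double-negative TECs. It was higher in RANK+ TECs by 1.66-fold against CCL21+ (-0.73 ± 0.09, adjusted p = 0.000105) and 1.84-fold against double-negative TECs (0.88 ± 0.10, adjusted p = 8.44e-05). A test of a fold change over 1.5 gave an adjusted p of 0.0567 for the former.

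The cadherins of the desmosome differed in opposite directions, with desmogleins highest and desmocollins lowest in RANK+ TECs. Desmogleins summed to 62.4, 43.8 and 48.4 RPKM in CCL21+, 144, 128 and 122 RPKM in RANK+ and 23.9 and 26.6 RPKM in double-negative libraries. Desmocollins summed to 84.5, 71.0 and 86.2 RPKM, 32.3, 31.2 and 29.5 RPKM and 141 and 150.4 RPKM in the same order. The ratio of desmogleins to desmocollins was therefore 0.638 ± 0.0908 in CCL21+, 4.24 ± 0.197 in RANK+ and 0.173 ± 0.00541 in double-negative TECs, with no overlap between the populations. Of 9 genes of this class that were tested, *Cdh1* included, 2 were called higher in CCL21+ and 3 higher in RANK+ TECs when these were compared, against 15.4% of all genes each way.

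*Dsg1a* and *Dsg1b* are mouse copies of desmoglein 1, the desmoglein of differentiated epidermis. *Dsg1a* was at 1.17, 0.692 and 0.673 RPKM in CCL21+, 49.9, 42.8 and 38.7 RPKM in RANK+ and 0.295 and 0.0688 RPKM in double-negative TECs, and *Dsg1b* at 0.110, 0.378 and 0.124 RPKM in CCL21+, 41.1, 43.6 and 40.0 RPKM in RANK+ and 0.258 and 0.0176 RPKM in double-negative TECs. Both were higher in RANK+ TECs than in CCL21+ (-5.56 ± 0.43, adjusted p = 5.56e-06 and -7.59 ± 0.67, adjusted p = 1.21e-05) and double-negative TECs (7.77 ± 0.59, adjusted p = 5.92e-06 and 8.11 ± 0.83, adjusted p = 3.68e-05). Against double-negative TECs, *Dsg1a* gave 9.25 without the first and 7.02 without the second double-negative library, and *Dsg1b* 11.11 and 7.14, and *Dsg1b* gave -8.42 against CCL21+ TECs without the second library of these. Their counts were not whole in any of the 8 libraries, as RSEM divides reads that match both copies, and the split between the copies is uncertain. Their sum, 85.4 ± 6.23 RPKM in RANK+, 1.05 ± 0.242 RPKM in CCL21+ and 0.319 ± 0.330 RPKM in double-negative TECs, depends on the split only as far as their exon lengths differ. They made up 64.9 ± 2.24% of desmoglein RNA in RANK+, 2.05 ± 0.399% in CCL21+ and 1.32 ± 1.41% in double-negative TECs. Beside these values, genes of cornified keratinocytes were also highest in the RANK+ libraries, as given above, and their part was not tested. *Krt10* and *Lor* were the 2 of 6 such genes called higher than in CCL21+ TECs.

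*Dsg2*, the widespread desmoglein, was at 59.5, 40.7 and 45.5 RPKM in CCL21+, 47.8, 37.3 and 38.8 RPKM in RANK+ and 22.4 and 25.8 RPKM in double-negative TECs. Both reporter-positive populations exceeded double-negative TECs (1.01 ± 0.17, adjusted p = 0.00435 for CCL21+ and 0.66 ± 0.16, adjusted p = 0.00832 for RANK+), and between themselves they overlapped (0.36 ± 0.14, adjusted p = 0.0582). Without the first double-negative library, these adjusted p values against double-negative TECs were 0.0507 and 0.0652, and the difference between the reporter-positive populations had adjusted p values of 0.0387 without the third CCL21+ and 0.0391 without the first RANK+ library, and the replicate block gave 0.0449. *Dsg4*, a desmoglein of hair and upper epidermis, was at 1.34, 1.66 and 1.88 RPKM in CCL21+, 4.16, 3.43 and 4.26 RPKM in RANK+ and 0.814 and 0.610 RPKM in double-negative TECs. Its populations did not overlap, with -1.16 ± 0.22 (adjusted p = 0.00144) between CCL21+ and RANK+, 1.18 ± 0.25 (adjusted p = 0.0159) between CCL21+ and double-negative, and 2.34 ± 0.26 (adjusted p = 7.02e-05) between RANK+ and double-negative TECs. The adjusted p of *Dsg4* between CCL21+ and double-negative TECs was 0.171 without the second double-negative library and 0.101 in a test of a fold change over 1.5, which gave 0.0657 and 0.298 for *Dsg2* in CCL21+ and RANK+ against double-negative TECs.

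Of the desmocollins, *Dsc2* and *Dsc3* ran the other way. *Dsc3*, the desmocollin of basal epidermis, was at 21.7, 17.2 and 22.7 RPKM in CCL21+, 3.07, 3.15 and 2.10 RPKM in RANK+ and 53.2 and 59.0 RPKM in double-negative TECs. The 3 populations were separate, and double-negative exceeded RANK+ TECs 21.9-fold (-4.45 ± 0.18, adjusted p = 3.02e-07), while CCL21+ lay between them (3.00 ± 0.16, adjusted p = 8.83e-07 against RANK+ and -1.45 ± 0.16, adjusted p = 0.000728 against double-negative TECs). *Dsc2*, the widespread desmocollin, was at 62.8, 53.8 and 63.5 RPKM in CCL21+, 28.9, 28.0 and 27.4 RPKM in RANK+ and 87.7 and 91.3 RPKM in double-negative TECs. It had the same order with smaller steps, 1.21 ± 0.10 (adjusted p = 6.12e-06) between CCL21+ and RANK+ and -1.79 ± 0.10 (adjusted p = 1.51e-06) between RANK+ and double-negative TECs. Between CCL21+ and double-negative TECs, *Dsc2* differed by -0.58 ± 0.10 (adjusted p = 0.00701), a fold change of 1.49, just under the limit for a call, and its adjusted p was 0.0751 without the first double-negative library. *Dsc1*, singled out after its values were seen, was low throughout and highest in RANK+ TECs, with 126 counts there, 1 in CCL21+ and 13 in double-negative TECs (-6.31 ± 1.62, adjusted p = 0.0086 between CCL21+ and RANK+ TECs, with 101 of the 126 counts in the first RANK+ library). *Cdh1* was at 169, 127 and 154 RPKM in CCL21+, 141, 121 and 127 RPKM in RANK+ and 122 and 161 RPKM in double-negative TECs. All 3 populations overlapped, and the log2 fold changes were 0.33 ± 0.12 (adjusted p = 0.0485) between CCL21+ and RANK+, 0.09 ± 0.14 (adjusted p = 0.762) between CCL21+ and double-negative, and -0.24 ± 0.14 (adjusted p = 0.186) between RANK+ and double-negative TECs. The first of these lost its adjusted p under 0.05 in each of 17 alternatives, leaving out any 1 library included.

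The plaque of the desmosome was lower in RANK+ TECs. Its 6 genes summed to 554, 462 and 454 RPKM in CCL21+, 191, 135 and 127 RPKM in RANK+ and 291 and 428 RPKM in double-negative libraries. Against RANK+ TECs, 5 of 6 genes were called higher in CCL21+ (15.4% of all genes) and 4 of 6 higher in double-negative TECs (15.1% of all genes). *Dsp*, which encodes desmoplakin, the link to keratin filaments, was at 375, 289.9 and 286 RPKM in CCL21+, 89.6, 51.4 and 50.6 RPKM in RANK+ and 186 and 300.1 RPKM in double-negative TECs. It fell below both other populations in every RANK+ library, with 2.45 ± 0.25 (adjusted p = 2.90e-05) between CCL21+ and RANK+ and -2.04 ± 0.26 (adjusted p = 0.000161) between RANK+ and double-negative TECs. CCL21+ and double-negative TECs overlapped (0.40 ± 0.27, adjusted p = 0.394). *Dsp* (chr13:38151294-38198577, GRCm38, plus strand) had the highest mean of all 66 genes in CCL21+ and double-negative TECs.

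*Jup*, which encodes plakoglobin, was at 42.8, 42.7 and 49.2 RPKM in CCL21+, 22.9, 18.3 and 17.4 RPKM in RANK+ and 42.1 and 52.6 RPKM in double-negative TECs. It was lower in RANK+ TECs than in CCL21+ (1.32 ± 0.11, adjusted p = 8.86e-06) and double-negative TECs (-1.39 ± 0.12, adjusted p = 1.29e-05). *Pkp4*, a plakophilin relative also found at adherens junctions, was at 21.7, 27.7 and 26.6 RPKM in CCL21+, 11.0, 12.3 and 11.8 RPKM in RANK+ and 27.1 and 32.9 RPKM in double-negative TECs, with 1.23 ± 0.14 (adjusted p = 5.09e-05) and -1.47 ± 0.15 (adjusted p = 3.33e-05) in the same comparisons. *Pkp3*, singled out after its values were seen, shared this pattern, at 26.4 ± 1.19 RPKM in CCL21+, 15.9 ± 0.439 RPKM in RANK+ and 26.5 ± 3.50 RPKM in double-negative TECs. For these 3 genes the RANK+ libraries lay below all others.

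Plakophilins 1 and 2 departed from the rest of the plaque. *Pkp1*, the plakophilin of stratified epithelia, was at 87.7, 75.7 and 63.9 RPKM in CCL21+, 46.5, 35.2 and 28.6 RPKM in RANK+ and 12.6 and 13.3 RPKM in double-negative TECs. The order was CCL21+, RANK+, double-negative, with no overlap and 1.18 ± 0.18 (adjusted p = 0.000458) between CCL21+ and RANK+, 2.56 ± 0.22 (adjusted p = 0.000201) between CCL21+ and double-negative, and 1.38 ± 0.21 (adjusted p = 0.000496) between RANK+ and double-negative TECs. *Pkp2*, the plakophilin of heart and simple epithelia, was at 1.25, 0.479 and 0.203 RPKM in CCL21+, 4.41, 2.504 and 2.81 RPKM in RANK+ and 0.0415 and 0.0834 RPKM in double-negative TECs. It was the plaque gene called higher in RANK+ than in CCL21+ TECs (-2.18 ± 0.56, adjusted p = 0.00826), and it also exceeded double-negative TECs (5.57 ± 0.80, adjusted p = 0.000351). Without the first CCL21+ library the former was -3.08.

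**Figure D4:**
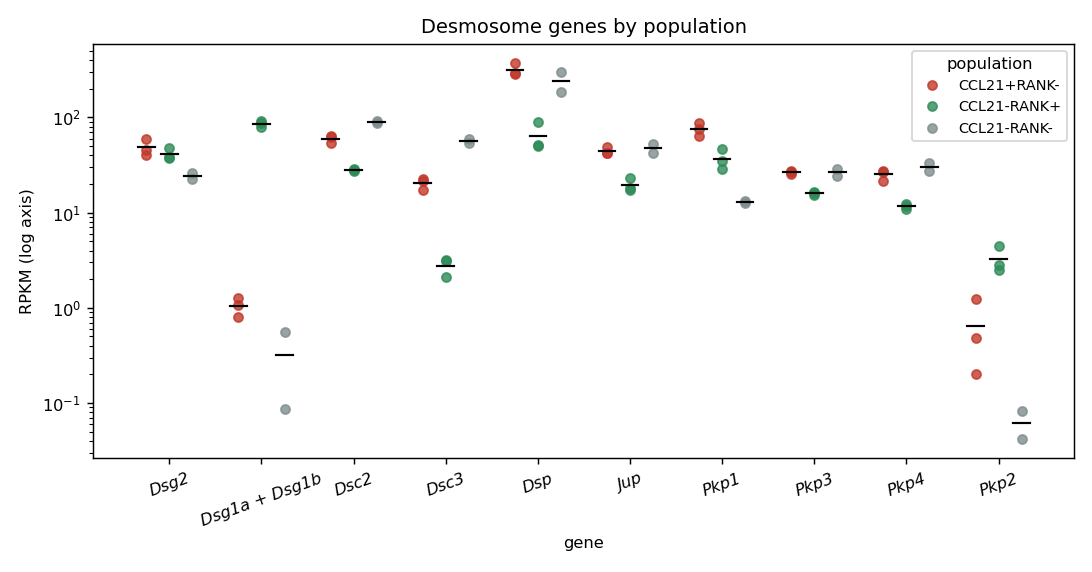
RPKM (log axis) of desmosome genes in each library, coloured by population, with the mean as a black line; *Dsg1a* and *Dsg1b* are summed. The RANK+ points lie above all others for *Dsg1a* + *Dsg1b* and *Pkp2*, and below all others for *Dsc2*, *Dsc3*, *Dsp*, *Jup*, *Pkp3* and *Pkp4*.

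Connexin RNA was most abundant in RANK+ TECs. Their summed level was 22.7, 13.3 and 17.4 RPKM in CCL21+, 94.1, 71.1 and 73.3 RPKM in RANK+ and 9.39 and 11.5 RPKM in double-negative libraries. *Gja1*, the most widespread connexin of mammals, supplied 78.6 ± 4.56% of it in CCL21+ and 76.5 ± 1.45% in double-negative, but 32.7 ± 7.66% in RANK+ TECs. Of 18 connexins tested, 1 was called higher in CCL21+ and 6 higher in RANK+ TECs, which is 38.9% called against 30.8% of all genes. The same number, 6, were higher in RANK+ than in double-negative TECs and 0 were lower, 33.3% against 29.5% of all genes. Both shares were near those of all genes, but the directions were uneven. All genes gave 15.4% each way in the first comparison, and 14.4% higher and 15.1% lower in RANK+ in the second. By adjusted p under 0.05 alone (edgeR), 15 of the 18 were higher in RANK+ TECs in each comparison (30.6% and 27% of all genes). In the other direction there were 1 and 0 (23.1% and 21.9%). A gene high in 1 population can pass the expression filter through that population alone. *Gja1* was at 17.7, 9.88 and 14.5 RPKM in CCL21+, 22.5, 27.0 and 26.5 RPKM in RANK+ and 7.28 and 8.65 RPKM in double-negative TECs. The populations did not overlap, with -0.75 ± 0.18 (adjusted p = 0.00616) between CCL21+ and RANK+, 0.81 ± 0.21 (adjusted p = 0.0326) between CCL21+ and double-negative, and 1.56 ± 0.21 (adjusted p = 0.000243) between RANK+ and double-negative TECs. The second of these had adjusted p values of 0.0692 and 0.0598 without the first or the third CCL21+ library, and 0.202 and 0.167 without the first or second double-negative library. With the replicate number as a block it was 0.80 (adjusted p = 0.0589), and a test of a fold change over 1.5 gave adjusted p values of 0.411 there and 0.159 between CCL21+ and RANK+ TECs.

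*Gjb2*, a connexin of the epidermis and cochlea, was at 0.341, 0.208 and 0.324 RPKM in CCL21+, 33.3, 17.6 and 21.9 RPKM in RANK+ and 0.290 and 0.151 RPKM in double-negative TECs. It was higher in RANK+ TECs by 75.4-fold against CCL21+ (-6.24 ± 0.32, adjusted p = 7.63e-07) and 99.6-fold against double-negative TECs (6.64 ± 0.40, adjusted p = 1.69e-06), where the log2 value was 7.25 without the first double-negative library. *Gja4*, known from arteries and the ovarian follicle, was at 0.915, 0.555 and 0.517 RPKM in CCL21+, 22.3, 19.4 and 16.3 RPKM in RANK+ and 0.299 and 0.174 RPKM in double-negative TECs. It was higher in RANK+ TECs by 26.6-fold (-4.73 ± 0.30, adjusted p = 1.90e-06) and 74.4-fold (6.22 ± 0.39, adjusted p = 2.25e-06) against the same populations. Endothelial genes in sum were highest in the same libraries, at 4.25, 2.36 and 1.90 RPKM, with only *Tek* called. Their part in the *Gja4* level was not tested. *Gjb6* and *Gjd3*, singled out after their values were seen, were at 1.29 ± 0.600 and 1.04 ± 0.636 RPKM in RANK+ and under 0.2 RPKM on average elsewhere. The call of *Gjd3* between CCL21+ and RANK+ TECs (-2.98 ± 1.09, adjusted p = 0.0414) was lost when any 1 of 6 of the 8 libraries was left out, with adjusted p values of 0.0551 to 0.109. It held without the first CCL21+ library, where the log2 value was -4.73, and without the third RANK+ library, and the replicate block gave an adjusted p of 0.0516. Against double-negative TECs, the adjusted p of *Gjb6* and *Gjd3* was 0.108 and 0.134 without the first and 0.0983 and 0.0951 without the second double-negative library.

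*Gja3*, known from the lens, was the 1 connexin called higher in CCL21+ TECs than in both other populations, at 2.12, 1.23 and 0.704 RPKM in CCL21+, 0.253, 0.0337 and 0.0632 RPKM in RANK+ and 0.0150 and 0.00942 RPKM in double-negative TECs. It was higher there than in RANK+ (3.67 ± 0.74, adjusted p = 0.00227) and double-negative TECs (6.72 ± 1.08, adjusted p = 0.00406), and the latter adjusted p was 0.0607 without the second double-negative library. The former was 4.89 without the first RANK+ library. It was highest in the first CCL21+ library, which also had the most parathyroid RNA, and this was not tested. Without that library, the mean of *Gja3* in CCL21+ TECs was under 1 RPKM, the limit for a call, so that both calls ended. *Gja3* (chr14:57034460-57058100, GRCm38), *Gjb2* (chr14:57098600-57104702) and *Gjb6* (chr14:57123303-57133611) are neighbours on chromosome 14, 40.5 kb and 18.6 kb apart, so that connexins highest in different populations lay side by side. *Gjc1*, also chosen after its values were seen, was the connexin above 1 RPKM called in no comparison, at 0.867, 1.12 and 0.954 RPKM in CCL21+, 0.792, 0.973 and 1.09 RPKM in RANK+ and 1.01 and 1.83 RPKM in double-negative TECs.

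The remaining 27 genes, 12 connexins and 12 claudins among them, were at or under 1 RPKM on average in all populations. Of these, 24 had their highest mean in RANK+, 3 in double-negative and 0 in CCL21+ TECs. Of the 18 that passed the expression filter, which a gene high in 1 population can pass through that population alone, 15 had an adjusted p under 0.05 and were higher in RANK+ than in CCL21+ TECs, and 0 were in the opposite direction (edgeR). By that adjusted p alone, with no limit on fold change or level, 50 of the 57 junction genes tested differed between these populations against 53.7% of all genes, 37 higher in RANK+ (30.6% of all genes) and 13 higher in CCL21+ TECs (23.1%). Between RANK+ and double-negative TECs it gave 39 higher in the former (27% of all genes) and 9 higher in the latter (21.9%, and 49% in all), and between CCL21+ and double-negative TECs 15 (6.28%) and 4 (5.15%, and 11.4% in all). Of the 27 genes, 15 had 0 counts in all CCL21+ libraries, and 10 of these had counts in all 3 RANK+ libraries. *Dsg3*, singled out after its values were seen, was the closest to the limit, at 0.933 ± 0.286 RPKM in RANK+, 0.269 ± 0.104 RPKM in CCL21+ and 0.123 ± 0.0123 RPKM in double-negative TECs.

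Partners of these proteins outside the rule were split between the populations. Of 34 tested partners of adherens junctions, polarity complexes and plaques, 11 were called higher in CCL21+ and 10 higher in RANK+ TECs (15.4% of all genes each way). The former included *Cdh3* (P-cadherin; 51.3 ± 4.33 against 9.22 ± 1.52 RPKM; log2 fold change 2.59 ± 0.15, adjusted p = 1.42e-06), *Amotl1*, an angiomotin (2.61 ± 0.15, adjusted p = 1.31e-06), and *Perp*, a membrane protein of desmosomes (1.01 ± 0.13, adjusted p = 0.00013). The latter included *Lsr*, which encodes the angulin that brings tricellulin to tricellular contacts (22.9 ± 2.66 against 55.0 ± 1.33 RPKM; -1.15 ± 0.10, adjusted p = 1.13e-05), *Crb3*, an apical polarity protein (-2.15 ± 0.62, adjusted p = 0.0145), and *Ppl* and *Evpl*, which encode the plakins periplakin and envoplakin (-1.57 ± 0.40, adjusted p = 0.00861 and -1.70 ± 0.33, adjusted p = 0.00188). Against double-negative TECs, 12 partners were higher and 9 lower in RANK+ (14.4% and 15.1% of all genes), and 6 were higher and 1 lower in CCL21+ TECs (4.35% and 3.66% of all genes). The median log2 fold change of the partners was 0.05 between CCL21+ and RANK+, 0.18 between CCL21+ and double-negative, and 0.04 between RANK+ and double-negative TECs.

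Of 17 transcription and splicing factors known to act on epithelial junction genes, 3 were called higher in CCL21+ and 8 higher in RANK+ TECs (15.4% of all genes each way). The 3 were *Trp63*, a master factor of stratified epithelium (74.6 ± 5.78 against 19.5 ± 6.31 RPKM; 2.04 ± 0.23, adjusted p = 6.35e-05), *Grhl2* (1.06 ± 0.09, adjusted p = 9.01e-06) and *Snai2* (1.58 ± 0.28, adjusted p = 0.00111). The 8 included the Grainyhead-like factor *Grhl3* (0.118 ± 0.0322 against 5.26 ± 3.14 RPKM; -5.32 ± 0.47, adjusted p = 1.23e-05), the Ets factors *Ehf* (-2.44 ± 0.20, adjusted p = 6.96e-06) and *Elf3* (-2.52 ± 0.30, adjusted p = 8.37e-05), and the splicing factors *Esrp1* and *Esrp2* (-0.68 ± 0.09, adjusted p = 0.000223 and -0.69 ± 0.10, adjusted p = 0.00035). *Snai1*, a repressor of *Cdh1* in other tissues, was also among them (0.0395 ± 0.0377 against 1.06 ± 0.232 RPKM; -4.53 ± 0.76, adjusted p = 0.000754), so *Snai1* and *Snai2*, which bind the same E-box, differed in opposite directions. Against double-negative TECs, 8 were higher and 3 lower in RANK+ (14.4% and 15.1% of all genes), and 2 (*Grhl1* and *Klf4*) higher and 0 lower in CCL21+ TECs (4.35% and 3.66% of all genes). The median log2 fold change of the 17 was -0.61 between CCL21+ and RANK+, -0.02 between CCL21+ and double-negative, and 1.12 between RANK+ and double-negative TECs.

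The libraries of a population also varied among themselves. Of the 39 genes above 1 RPKM, 26 were highest in the first of the CCL21+ libraries, 30 in the first of the RANK+ libraries and 26 in the second of the double-negative libraries. The share of counts on *Gm26917* and *Gm42418*, predicted genes that overlap ribosomal RNA sequence, ranged from 6.89% to 19.4% and from 1.47% to 10.7% across the libraries and lowers the RPKM of all other genes. Its part in the differences between libraries of a population was not tested.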

How the data were processed

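RNA-sequencing of 8 libraries was analysed. The authors deposited 1 table of expected counts from RSEM, in which a read that fits several genes is divided among them (4.47% to 5.94% of values per library were not whole). The submitters' processing notes name bcl2fastq 2.20, Trimmomatic, STAR 2.5.1, RSEM 1.3.1 and the build mm10, and the study's methods name CLC Genomics Workbench. The strand setting of the counting is not given in the sources used here, and the library kit is named differently in the labels and in the methods. All 55450 identifiers matched GENCODE M21 (GRCm38), which supplied positions and exon lengths, and 0 columns were left out.

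Counts were rounded and tested in edgeR 4.0.16 (R 4.3.3) by the quasi-likelihood test, after TMM scaling and the default expression filter, and p-values were adjusted over 21451 genes (Benjamini-Hochberg). One fit held all 8 libraries and 3 group means. The quasi-likelihood F gave the standard errors. RPKM used the rounded count, the library total and the summed exon length. Reads were not molecules, so counting intervals and floors (3 counts) cover counting error only. At these depths the spread between libraries (common biological coefficient of variation 0.326) exceeded counting error for expressed genes. No pair of libraries of a population agreed within sampling noise (chi-square per gene 77.3 to 275), and each counted as 1 replicate.

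On simulated counts of the comparison of CCL21+ with RANK+ TECs (21451 genes, 200 changed 4-fold), edgeR recovered 50.5% and called 8 others, and DESeq2 1.42.0 recovered 64.0% and called 68 others. The changes were set in RANK+ TECs only and scored by the adjusted p alone. In the data, 30.8% of genes were called, with limits on fold change and level as well, so these rates do not carry over. Alternatives were DESeq2, other scalings, filters and thresholds, a replicate block, the populations compared alone and leaving out each library. In each class, the genes named were up to 3 called per direction and comparison with the largest log2 fold change, and the 2 with the highest mean. Some genes that this rule names are not reported here. The members, the partner, regulator and marker lists and the motifs were chosen with earlier results of these data known. Figures were drawn with matplotlib 3.10.9.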

Additional observations from a re-analysis of the deposited data

How the results depend on the processing

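The counts of junction genes called moved by over 1.5 times under few alternatives. With the adjusted p alone, 37 genes were higher in RANK+ than in CCL21+ TECs, and with a mean over 0.1 RPKM 36 were, against 22. When CCL21+ and double-negative TECs were compared, a test of a fold change over 1.5 left 6 genes higher in the former (10 before) and 1 higher in the latter (2 before), and the adjusted p alone gave 4 of the latter. Leaving out 1 library at a time gave 11 to 12 genes higher in CCL21+ and 19 to 22 higher in RANK+ TECs when these were compared, 4 to 11 and 1 to 3 for CCL21+ against double-negative TECs, and 22 to 27 and 9 to 9 for RANK+ against double-negative TECs. With at least 10 counts in every library, 16 genes were higher in RANK+ than in CCL21+ TECs and 20 higher than in double-negative TECs, since fewer genes were tested.

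Of 1516 log2 fold changes of named genes under 17 alternatives, 1429 kept their direction and their side of the threshold, 61 lost it, 9 gained it and 17 changed sign. None of the 9 fold changes that changed sign had an adjusted p under 0.05. For CCL21+ over double-negative TECs, the replicate block gave -0.062 for *Cldn12* and -0.0025 for *Tjp3*. In the same comparison, leaving out 1 library at a time gave a log2 fold change of -0.086 to 0.14 for *Cldn12*, -0.34 to 5.44 for *Cldn13*, -0.066 to 1.02 for *Gjb2*, -0.034 to 0.22 for *Cdh1*, -0.45 to 3.53 for *Dsg1b*, -0.16 to 0.011 for *Jup*, -0.40 to 0.077 for *Ocln* and -0.31 to 0.18 for *Tjp3*. For CCL21+ over RANK+ TECs, *Cldn6* ranged from -0.14 (without the first CCL21+ library) to 0.77. The cause was not tested. The median log2 fold change of all genes for RANK+ over double-negative TECs was 0.06 with TMM, 0.20 with the size factors of DESeq2 and 0.18 with upper-quartile scaling, and no named gene changed sign with the scaling.

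Any pairing of the libraries by replicate number is unknown, and the main fit had no term for it. In their deviations from the group means, same-numbered CCL21+ and RANK+ libraries correlated by 0.126, 0.0485 and 0.0707. Each of these correlated best with its own number, a hint from the data and not the design. The first and second double-negative libraries correlated with their same-numbered CCL21+ libraries by -0.0528 and -0.117. With their same-numbered RANK+ libraries they correlated by -0.0519 and -0.0411. Such small values of both signs cannot decide whether the libraries were paired. The block ended the calls of *Gja1* for CCL21+ against double-negative TECs (0.80, adjusted p = 0.0589) and of *Gjd3* for CCL21+ against RANK+ TECs (-3.16, adjusted p = 0.0516), and took *Dsg2* between CCL21+ and RANK+ TECs past the threshold of the adjusted p (0.35, adjusted p = 0.0449). With it, 12 and 21 genes were called between these populations, 9 and 2 for CCL21+ against double-negative, and 26 and 9 for RANK+ against double-negative TECs. When *Gm26917* and *Gm42418* were left out of the totals, 89 of 90 mean levels of named genes rose, 47 of them by more than their SD, and the other was 0. With 2 double-negative libraries, comparisons with this population rest on fewer libraries than that of CCL21+ with RANK+ TECs (3 libraries each).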
